A study of Rattus norvegicus with 12 samples.

Results

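The genes described here are those of the killing machinery of natural killer (NK) cells and cytotoxic T lymphocytes, measured in whole lungs of rats with and without left heart failure. They are the granule genes Prf1, Gzma, Gzmb, Gzmk, Gzmm and Nkg7, the receptor genes Klrd1, Klrk1 and Il2rb, and the chemokine gene Ccl5, chosen by gene symbol, with every probe set of the platform annotation that carried only that symbol. All 10 were on the array, among 14217 genes named there by a single symbol, with 11 of its 31042 probe sets, since Gzmb had a pair of them, 1370628_at (the brighter) and 1379794_at (the dimmer). Of the 11 probe sets, 10, for 9 genes, reached a log2 value of 4 in at least 3 arrays and were tested among the 16536 probe sets that did so. Klrk1 did not, with log2 values between 2.43 and 3.54 in the 12 lungs.

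Each of the 12 lungs came from a male Sprague-Dawley rat and was hybridised to its own Affymetrix rat genome array, 3 arrays in each of 4 groups. CHF ketotifen rats had a band placed around the aorta above the coronary arteries as juveniles, which overloads the left heart, and drank ketotifen, an antihistamine that also stabilizes mast cells, in a daily dose of 1 mg per kg from the day after surgery until the lungs were taken at 9 weeks. CHF placebo rats had the band without the drug. Sham ketotifen rats had the operation without the band and the same drug, and sham placebo rats had neither band nor drug. The arms without drug are called placebo in the sample labels and untreated in the design text, which speaks of the heart failure rats only. All values are log2 expression values as the authors deposited them, so that a difference of 1 is a doubling, and values of about 2 to 4 lie near background, where differences are compressed. The number of arrays limits the precision, and the labels do not say more of the rats' independence than that each sample is a separate lung.

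NK cells and cytotoxic T lymphocytes kill target cells by releasing granules into the contact with them. Perforin opens the target's membrane, granzymes enter and cleave its proteins, and the cell dies. The same cells carry lectin-like receptors that read stress and class I molecules on the target, live on interleukin 2 and interleukin 15 and release chemokines such as Ccl5. The lung holds many of them, both in its capillaries and in its tissue. In bulk lung RNA, fewer such cells and less RNA of these genes per cell cannot be told apart.

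The lungs differed in the levels of markers of other cells within as well as between groups. Club cell markers, which the lung airway should hold, averaged 7.01 to 11.84 over 5 genes in the 12 lungs. Within that list Scgb1a1 stayed between 15.55 and 16.23, while Cyp2f4 ran from 2.17 to 11.43. The mean of 6 ciliated cell markers reached 9.36 at most in sham placebo lungs, where lungs 2 and 3 were highest, against 5.66 to 7.14 in the 9 lungs of the other groups. Cardiomyocyte markers, 5 genes of heart muscle, reached 10.31 at most in sham ketotifen lungs, where lungs 1 and 2 stood out, and 9.30 in sham placebo lung 3, against 2.60 to 2.92 in all 6 CHF lungs. The source of this signal was not tested. The 3′ minus 5′ signal of the beta-actin control, which grows with RNA breakdown, was 4.52 in sham ketotifen lung 2, 4.23 in sham placebo lung 2, 3.90 in sham placebo lung 3 and 2.90 to 3.45 in the other 9 lungs. CHF ketotifen lungs 1 and 3 were the most alike of all pairs of arrays (SD of the difference over probe sets 0.258, the next pair 0.397), without being identical. Medians without sham placebo lungs 2 and 3, and without sham ketotifen lungs 1 and 2, stand beside the comparisons that use those groups. In these runs 1 lung is left in its group and is assumed to vary like the other groups.

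Promoters of 7 of the 10 genes were in RefSeq's table for rat build GRCr8 (250 bases before to 50 after the start of the gene), those of Prf1, Gzmb, Gzma, Gzmk, Gzmm, Nkg7 and Klrk1. The promoters of the pore-forming gene and of 2 granzyme genes are shown, since their levels moved together across the 12 lungs, as described below. Capitals mark matches, on either strand, to the letters of 4 motifs chosen with these promoters in view. The Runx motif was searched as TGTGGT and the ETS motif as AGGAAG. The CRE motif was searched as TGACGT and the T-box motif as GGTGTG. A match on the other strand appears as the reverse complement of these letters. No 2 of the matches overlapped in the promoters shown. Prf1 lies at chr20:29788790-29789089 on the + strand, Gzmb at chr15:34462420-34462719 on the - strand and Gzma at chr2:46485647-46485946 on the - strand, each written 5′ to 3′ in the direction of the gene.
Prf1: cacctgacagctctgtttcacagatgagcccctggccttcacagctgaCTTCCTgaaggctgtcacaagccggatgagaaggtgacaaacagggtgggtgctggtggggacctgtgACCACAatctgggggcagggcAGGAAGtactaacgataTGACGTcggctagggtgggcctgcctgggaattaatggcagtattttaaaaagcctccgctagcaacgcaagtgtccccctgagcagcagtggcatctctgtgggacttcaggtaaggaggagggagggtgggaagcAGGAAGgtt
Gzmb: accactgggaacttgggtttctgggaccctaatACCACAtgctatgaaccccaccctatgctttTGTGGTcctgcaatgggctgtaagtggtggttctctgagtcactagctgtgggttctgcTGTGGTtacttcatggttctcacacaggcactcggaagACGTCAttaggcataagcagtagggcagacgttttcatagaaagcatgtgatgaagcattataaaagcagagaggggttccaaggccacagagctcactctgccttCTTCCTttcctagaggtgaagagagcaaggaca
Gzma: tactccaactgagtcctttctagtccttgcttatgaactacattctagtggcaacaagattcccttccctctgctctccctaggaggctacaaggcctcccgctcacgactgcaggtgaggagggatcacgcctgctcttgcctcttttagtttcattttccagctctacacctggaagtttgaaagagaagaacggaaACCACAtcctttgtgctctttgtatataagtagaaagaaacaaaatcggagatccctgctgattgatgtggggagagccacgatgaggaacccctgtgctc
The Runx letters were present in 7 of the 7 promoters, against 17.3% of all 33469 promoters of 300 bases in the table. Counted from the start of the gene at 1, with -1 just before it, their first base lay at -134 in Prf1, at -51 in Gzma, and at -217, -186 and -127 in Gzmb. The ETS letters were present in 3 of the 7 (Prf1, Gzmb and Nkg7) against 34.5% of all promoters, the CRE letters in 2 (Prf1 and Gzmb) against 7.94%, and the T-box letters in 2 (Gzmk and Gzmm) against 17.9%. A match of letters does not show that a factor bound there. Since the motifs were chosen with these promoters in view, the counts do not test whether the letters are more frequent in them.

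Prf1 encodes perforin, the pore-forming protein of the granule. Its log2 level was 7.85, 6.17 and 8.58 in CHF ketotifen lungs 1 to 3, 6.44, 8.16 and 9.13 in CHF placebo lungs, 9.27, 9.30 and 8.03 in sham ketotifen lungs, and 8.69, 4.36 and 6.89 in sham placebo lungs. The ranges of the 4 groups overlapped, and the widest spread was within the sham placebo group, where lung 2 lay far below lung 1. Gzma encodes granzyme A, a protease that cuts after basic residues. Its levels were 6.81, 4.93 and 7.23 in CHF ketotifen lungs, 5.18, 7.17 and 8.001 in CHF placebo lungs, 7.9996, 9.02 and 7.15 in sham ketotifen lungs, and 7.90, 3.64 and 5.86 in sham placebo lungs. The same lung was lowest in each group for Gzma as for Prf1.

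Gzmb encodes granzyme B, which cuts after aspartate and activates caspases in the target cell. On its brighter probe set the levels were 6.50, 5.66 and 7.30 in CHF ketotifen lungs, 4.74, 6.44 and 7.38 in CHF placebo lungs, 8.32, 7.95 and 6.72 in sham ketotifen lungs, and 7.19, 3.79 and 5.59 in sham placebo lungs. The dimmer probe set gave 5.41, 2.92 and 5.75 in CHF ketotifen lungs, 3.11, 5.19 and 6.04 in CHF placebo lungs, 6.76, 7.42 and 6.01 in sham ketotifen lungs, and 5.80, 2.59 and 4.15 in sham placebo lungs. Both put the same lung lowest in each group. A further probe set that the annotation shares between Gzmb and LOC100361261 stayed at 3.31 to 3.71 in all lungs and was not counted, and granzyme genes are close enough in sequence that cross-hybridisation among them was not tested.

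Gzmk encodes granzyme K, a further protease that cuts after basic residues. It had 6.76, 6.43 and 7.36 in CHF ketotifen lungs, 5.94, 7.40 and 8.16 in CHF placebo lungs, 8.26, 7.97 and 7.06 in sham ketotifen lungs, and 7.98, 3.55 and 6.30 in sham placebo lungs. Without sham placebo lung 2, its 11 remaining values lay between 5.94 and 8.26. Gzmm encodes granzyme M, a protease found mainly in NK cells in humans. It had 4.63, 4.49 and 5.46 in CHF ketotifen lungs, 4.57, 4.65 and 6.62 in CHF placebo lungs, 5.01, 6.57 and 4.65 in sham ketotifen lungs, and 5.03, 3.38 and 4.34 in sham placebo lungs, so that single lungs stood out at 6.57 and 6.62. Nkg7 encodes a membrane protein of the granule. It had 4.53, 3.77 and 5.18 in CHF ketotifen lungs, 2.85, 5.21 and 5.70 in CHF placebo lungs, 6.44, 6.15 and 4.81 in sham ketotifen lungs, and 4.71, 2.62 and 4.03 in sham placebo lungs, where lung 2 was at background.

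Among the receptors, Klrd1 encodes CD94, the partner chain of the NKG2 receptors. It had 5.86, 4.17 and 6.80 in CHF ketotifen lungs, 4.26, 5.72 and 7.04 in CHF placebo lungs, 6.61, 7.49 and 5.98 in sham ketotifen lungs, and 6.41, 3.37 and 5.32 in sham placebo lungs. Il2rb encodes the receptor chain that interleukin 2 and interleukin 15 share. It had 5.22, 4.46 and 5.49 in CHF ketotifen lungs, 4.77, 5.45 and 6.27 in CHF placebo lungs, 5.71, 6.39 and 5.36 in sham ketotifen lungs, and 6.09, 4.90 and 5.06 in sham placebo lungs. Its spread was the smallest of the 10 probe sets, and its lowest value was in CHF ketotifen lung 2, not in sham placebo lung 2. Klrk1 encodes the activating receptor NKG2D, and its values near background were not tested. Ccl5 encodes a chemokine released by activated T and NK cells, though other cells can make it. It had 8.61, 7.12 and 9.27 in CHF ketotifen lungs, 8.25, 9.52 and 10.16 in CHF placebo lungs, 10.13, 9.83 and 8.68 in sham ketotifen lungs, and 9.48, 6.23 and 7.9997 in sham placebo lungs.

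**Figure D1:**
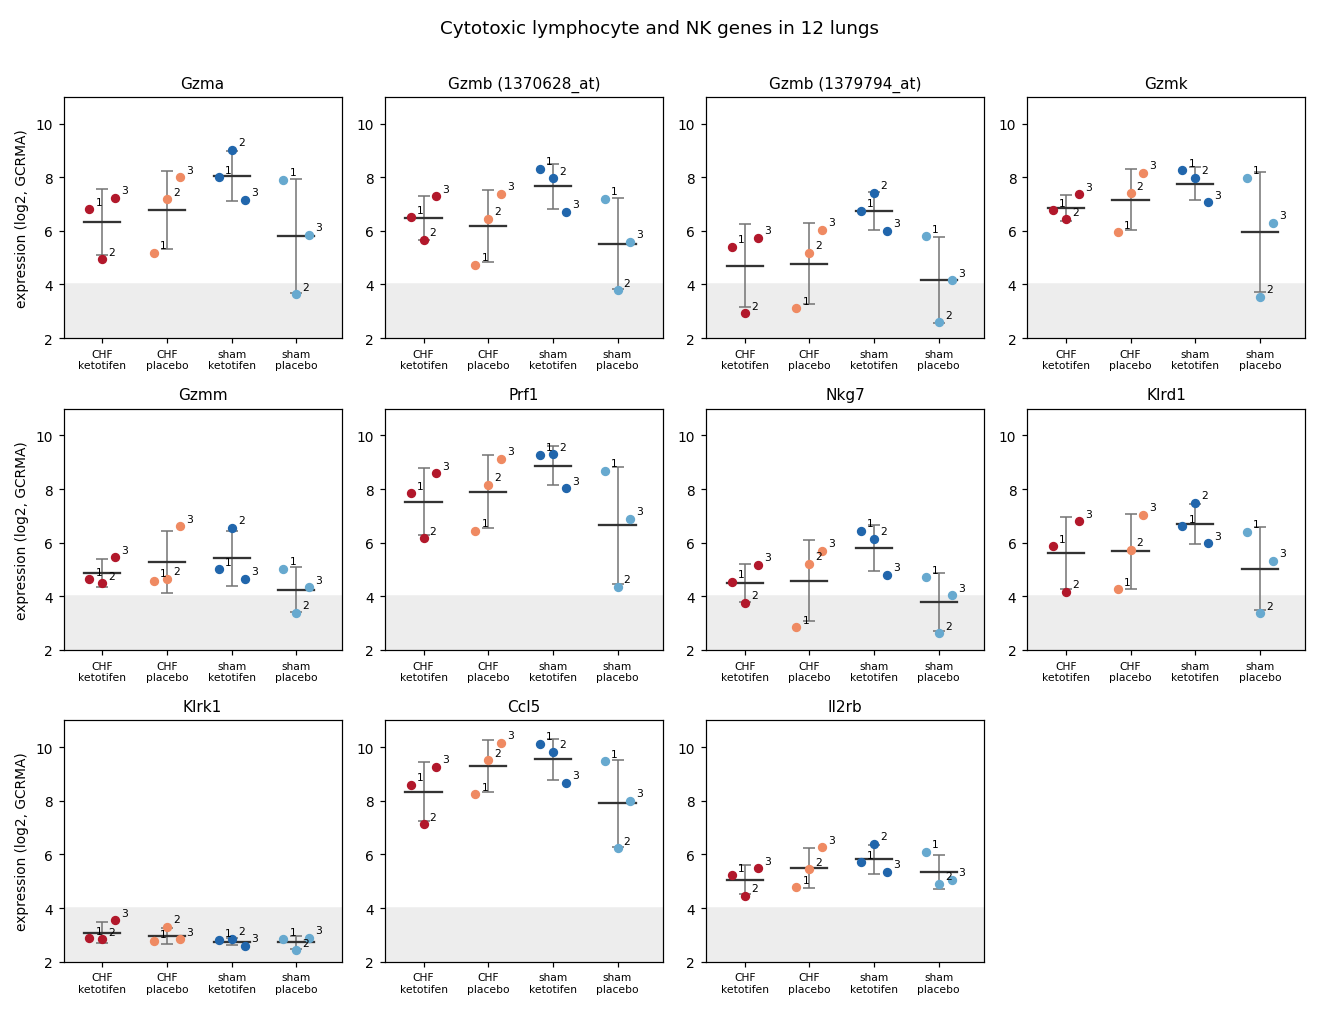
Log2 expression (vertical axis) of the 11 probe sets in the 4 groups; points are lungs with their replicate number, horizontal bars are group means and whiskers 1 SD (n = 3), and grey marks values under 4, near background. Sham placebo lung 2 lies lowest of the 12 lungs in 9 of the 10 probe sets tested, and Klrk1 stays in the grey band.

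The genes went up and down together from lung to lung within each group. In 10 of the 10 probe sets the lowest lung of its group was CHF ketotifen lung 2, CHF placebo lung 1, sham ketotifen lung 3 and sham placebo lung 2. The highest was CHF ketotifen lung 3, CHF placebo lung 3 and sham placebo lung 1 in 10 of 10, while in the sham ketotifen group it was lung 2 in 6 and lung 1 in 4. The mean over the 10 probe sets was 6.22, 5.01 and 6.84 in CHF ketotifen lungs, 5.01, 6.49 and 7.45 in CHF placebo lungs, 7.45, 7.81 and 6.44 in sham ketotifen lungs, and 6.93, 3.84 and 5.55 in sham placebo lungs.

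This spread between rats of one group was large for the array. The SD within groups was 1.501 for Gzma, 1.47 for Prf1, 1.31 for Gzmk, 1.29 for Klrd1 and between 0.62 and 1.39 for the other 6 probe sets, against a median of 0.277 over all probe sets tested. Il2rb had the lowest of these SDs, at the 91.1 percentile of all probe sets, and Gzma the highest, at the 99.7 percentile. Group membership accounted for 22.6% (Il2rb) to 42.2% (the dimmer Gzmb probe set) of the variance of a probe set over the 12 lungs, against a median of 47.6% over all probe sets tested.

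Prf1 was set against each of the other 8 genes tested, with the brighter probe set for Gzmb, and against the means of 10 marker lists, 18 relations in all, by two-sided permutation tests over the 12 lungs with Benjamini-Hochberg adjustment. Pearson's r was 0.98 with Gzma (Spearman's rho 0.99), 0.97 with Gzmb (0.94), 0.97 with Gzmk (0.93), 0.97 with Klrd1 (0.94), 0.97 with Ccl5 (0.94) and 0.93 with Nkg7 (0.94), each with an adjusted permutation p of 3e-05 for r and 7.71e-05 for rho, where 1e-05 is the smallest unadjusted p that the 100000 permutations can give. It was 0.82 with Il2rb (rho 0.96, adjusted permutation p = 0.0016 for r) and 0.81 with Gzmm (rho 0.91, adjusted permutation p = 0.00304). Without CHF ketotifen lung 2 and sham placebo lung 2, which lay farthest from the Prf1 median, r stayed between 0.72 (Gzmm) and 0.97 (Gzmb) over the 8 genes. On deviations from the group means it lay between 0.76 (Gzmm) and 0.99 (Ccl5). Over all 36 pairs of the 9 genes, r ran from 0.72 to 0.98 with a median of 0.89. Of the 16535 other probe sets, 112 (0.677%) correlated with Prf1 at least as highly as Gzmm did, while the median r over all of them was 0.04.

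Of the marker lists, the T cell list followed Prf1 most closely. Its mean over 7 genes had r = 0.87 with Prf1 (rho 0.89, adjusted permutation p = 0.000514 for r and 0.00058 for rho), 0.82 without the same lungs and 0.83 on deviations from the group means. Cd8a of that list, which encodes a CD8 chain, was named after its values were seen. It had 4.36, 3.87 and 5.34 in CHF ketotifen lungs, 3.05, 5.08 and 5.89 in CHF placebo lungs, 4.94, 6.401 and 4.39 in sham ketotifen lungs, and 5.04, 3.75 and 3.79 in sham placebo lungs. Il7r of the same list ran the other way with the drug. It had 6.17, 5.98 and 5.85 in CHF ketotifen lungs against 5.43, 5.17 and 4.998 in sham ketotifen lungs. Whether the list stood for T cells apart from NK cells was not tested. The other 9 lists did not pass at an adjusted p of 0.05. Their r with Prf1 was 0.59 for neutrophils (adjusted permutation p = 0.074), 0.56 for B cells (0.0872), 0.49 for all leukocytes (0.142), 0.40 for mast cells (0.256), 0.25 for cardiomyocytes, 0.24 for red cells, 0.21 for macrophages, -0.18 for club cells and -0.64 for ciliated cells (0.0526). On deviations from the group means the ciliated list had r = -0.81 and the neutrophil list r = 0.86. The part that admixed airway RNA or neutrophils had in the levels of the cytotoxic genes was not tested.

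**Figure D2:**
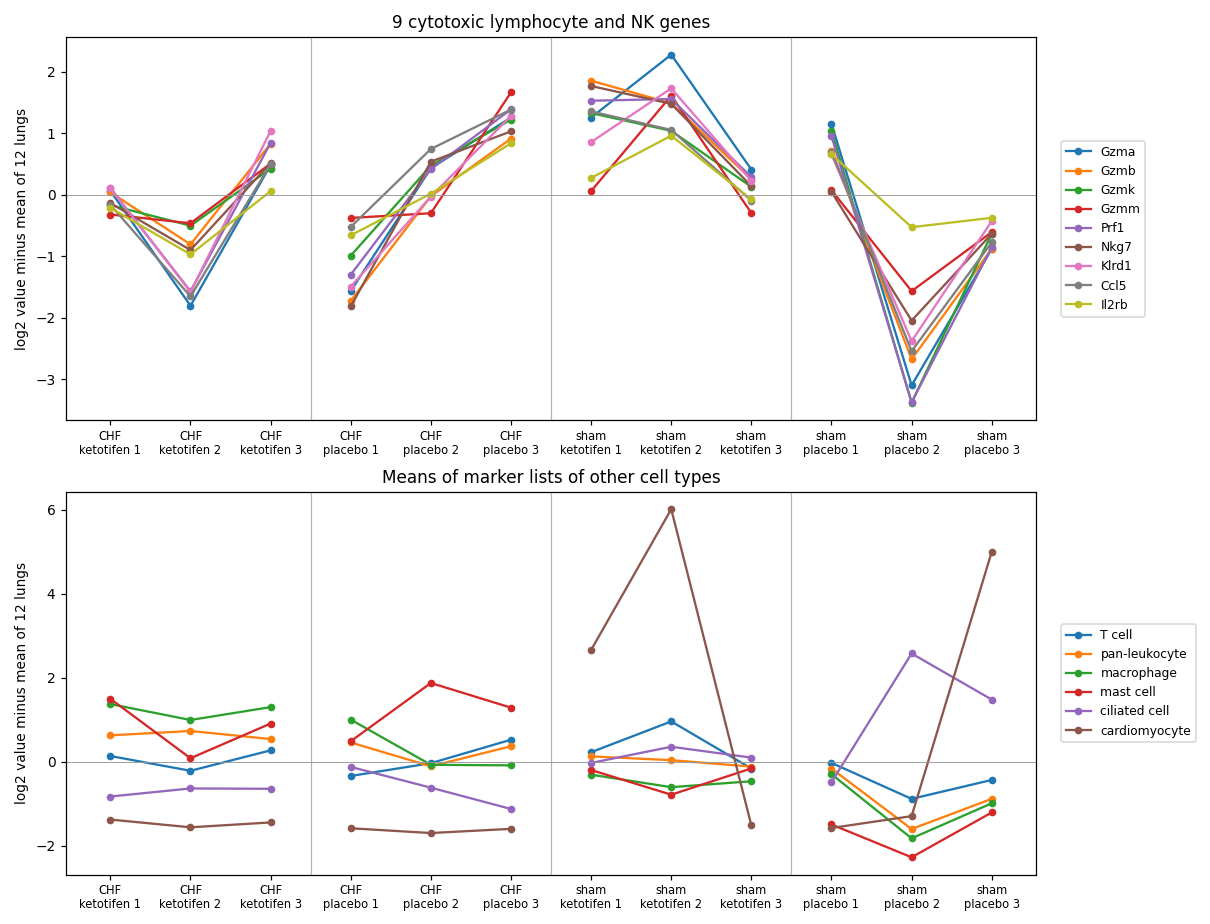
Log2 value minus the mean of the 12 lungs (vertical axis) for the 9 genes tested, 1 probe set each (upper panel), and for the means of 6 marker lists (lower panel), by lung; lines join the lungs of a group only to guide the eye. The 9 genes move in parallel, with their low point in sham placebo lung 2 for 8 of them, while the macrophage and mast cell means lie higher in every CHF lung than in every sham lung.

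The genes whose pattern over the 12 lungs was most like the mean of the 9 standardised genes included a further NK receptor. Klrb1a, an NK receptor of the NKR-P1 family, had the highest likeness, with r = 0.947 and levels of 4.88, 4.21 and 6.15 in CHF ketotifen lungs, 4.54, 5.57 and 6.47 in CHF placebo lungs, 5.49, 6.94 and 5.36 in sham ketotifen lungs, and 5.63, 2.71 and 5.01 in sham placebo lungs. Next came Ifgga2l1 (r = 0.922), Rfc1 (0.916), Gbp2, an interferon-induced GTPase (0.908), Csf3r, the receptor for granulocyte colony-stimulating factor (0.907), Slain2 (0.904), Gatad2a (0.9001), Gucy1a1, a subunit of the nitric oxide receptor of smooth muscle (0.899), Pbrm1 (0.899) and Tesc (0.897). For Rfc1, Slain2, Gatad2a and Pbrm1 another probe set of the same gene had an r of 0.12, 0.05, -0.49 and -0.04 at the lowest, so that those likenesses hold for single probe sets. These are descriptions, and all genes of a lung were measured in the same RNA and on the same array.

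The drug in sham rats gave the widest differences. The levels were higher on average in sham ketotifen than in sham placebo lungs for 10 of the 10 probe sets, by 0.47 (Il2rb) to 2.54 (the dimmer Gzmb probe set) with a median of 1.92, against a median of 0.00 over all probe sets tested. Since the 10 probe sets moved together in the same lungs, a sign that they share, here and in the comparisons below, is not 10 separate observations. Nkg7 averaged 5.80 ± 0.87 in sham ketotifen lungs and 3.79 ± 1.07 in sham placebo lungs (SD, n = 3 each), a difference of 2.01 (SE 0.77, limma adjusted p = 0.302). Prf1 averaged 8.86 ± 0.73 in sham ketotifen lungs and 6.65 ± 2.18 in sham placebo lungs (SD, n = 3 each), a difference of 2.22 (95% interval -0.05 to 4.49, limma adjusted p = 0.368). Gzma differed by 2.26 (SE 1.05), Gzmb on its brighter probe set by 2.15 (SE 0.87), Gzmk by 1.82 (SE 0.92), Klrd1 by 1.66 (SE 0.91), Ccl5 by 1.64 (SE 0.82) and Gzmm by 1.16 (SE 0.65).

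None of these differences passed limma's test. In sham rats, 0 of 10 probe sets were called at an adjusted p of 0.05, where 0.0847% of all probe sets were called, and 3 of 10 (Nkg7 and both of Gzmb) had an unadjusted p under 0.05, as did 14.0% of all probe sets. The values of the groups did not overlap for 2 of 10, Nkg7 and Gzmb on its dimmer probe set, against 16.4% of all probe sets. The direction was the same when each lung was left out in turn, but the median difference was 0.95 without sham placebo lung 2 and 2.66 without sham placebo lung 1, and 0.23 without sham placebo lungs 2 and 3, where 2 of 10 were negative. It was 1.07 without sham ketotifen lungs 1 and 2.

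Markers of other cells differed in the same comparison of ketotifen with placebo in sham rats. Of 9 markers of all leukocytes 0 were called, but 6 had an unadjusted p under 0.05, with a median difference of 0.93 and list means of 10.03 to 10.27 in sham ketotifen lungs against 8.54 to 9.98 in sham placebo lungs. Of 7 T cell markers 0 were called and 2 had such a p, with a median difference of 1.05 and list means of 4.86 to 5.98 in sham ketotifen lungs against 4.13 to 4.99 in sham placebo lungs. Of 8 mast cell markers 0 were called and 5 had such a p, with a median difference of 1.23. Of 4 B cell markers 1 was called, Fcrla, an Fc receptor-like protein of B cells (2.94, limma adjusted p = 0.0276). The ciliated cell markers had a median difference of -1.26 over 6 genes, with list means of 6.76 to 7.14 in sham ketotifen lungs against 6.30 to 9.36 in sham placebo lungs. For club cells the median difference was -1.45 over 5 genes, for neutrophils 1.36 over 4 genes, for cardiomyocytes 1.51 over 5 genes, for red cells 0.93 over 2 genes and for macrophages 0.29 over 9 genes, with 0 called in each of these lists. The part of these cells in the levels of the cytotoxic genes was not tested.

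Heart failure without the drug gave smaller differences of the same sign. The levels were higher on average in CHF placebo than in sham placebo lungs for 10 of the 10 probe sets, by 0.15 (Il2rb) to 1.41 (Ccl5) with a median of 0.89, against 0.02 over all probe sets tested. Ccl5 averaged 9.31 ± 0.97 in CHF placebo lungs and 7.90 ± 1.63 in sham placebo lungs (SD, n = 3 each), a difference of 1.41 (95% interval -0.39 to 3.20, limma adjusted p = 0.36). Prf1 differed by 1.26 (SE 1.03), Gzmk by 1.23 (SE 0.92), Gzmm by 1.03 (SE 0.65), Gzma by 0.99 (SE 1.05), Nkg7 by 0.80 (SE 0.77), Klrd1 by 0.64 (SE 0.91) and Gzmb by 0.67 (SE 0.87) and 0.59 (SE 0.98).

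None passed. Of the 10, 0 were called by limma, 0 had an unadjusted p under 0.05 and 0 had groups without overlap, where 0.169% of all probe sets were called, 20.1% had such a p and 23.4% did not overlap. The direction rested on sham placebo lung 2: without it the median was -0.02 and 5 of 10 were negative (Gzma, both of Gzmb, Klrd1 and Il2rb). Without CHF placebo lung 3, 3 of 10 were negative (Gzmb on its dimmer probe set, Klrd1 and Il2rb), and without sham placebo lung 3, Il2rb was. Without sham placebo lungs 2 and 3 the median was -0.76 and 9 of 10 were negative. The median was 1.55 without CHF placebo lung 1 and 1.46 without sham placebo lung 1.

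With the drug, the sign of the heart failure difference was the opposite. The levels were lower on average in CHF ketotifen than in sham ketotifen lungs for 10 of the 10 probe sets, with differences of -0.55 (Gzmm) to -2.03 (the dimmer Gzmb probe set) with a median of -1.20, against -0.03 over all probe sets tested. Gzma averaged 6.32 ± 1.22 in CHF ketotifen lungs and 8.06 ± 0.94 in sham ketotifen lungs (SD, n = 3 each), a difference of -1.74 (95% interval -4.06 to 0.58, limma adjusted p = 0.285). Prf1 differed by -1.33 (SE 1.03), Nkg7 by -1.30 (SE 0.77), Ccl5 by -1.21 (SE 0.82), Gzmb on its brighter probe set by -1.18 (SE 0.87), Klrd1 by -1.08 (SE 0.91), Gzmk by -0.92 (SE 0.92) and Il2rb by -0.76 (SE 0.45).

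Again none passed. Of the 10, 0 were called by limma where 13% of all probe sets were, 0 had an unadjusted p under 0.05 where 31.1% did, and 1 (Gzmb on its dimmer probe set) had groups without overlap where 40.1% did. The median was -0.68 without CHF ketotifen lung 2, and Gzmm turned to 0.027 without sham ketotifen lung 2. Without sham ketotifen lungs 1 and 2, where the cardiomyocyte markers were high, the median was -0.33.

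In heart failure no difference with the drug was shown. CHF ketotifen minus CHF placebo ran from -0.98 (Ccl5) to 0.30 (the brighter Gzmb probe set) with a median of -0.35, negative for 9 of 10, against -0.04 over all probe sets tested. Ccl5 averaged 8.33 ± 1.10 in CHF ketotifen lungs and 9.31 ± 0.97 in CHF placebo lungs (SD, n = 3 each), a difference of -0.98 (95% interval -2.77 to 0.82, limma adjusted p = 0.575). Of the 10, 0 were called, 0 had an unadjusted p under 0.05 and 0 had groups without overlap, against 1.22%, 17.1% and 25.4% of all probe sets. The median changed sign to 0.25 without CHF ketotifen lung 2 and to 0.24 without CHF placebo lung 3. The intervals of the 10 differences together reached from -2.78 to 2.21, so that differences of a few fold in either direction were not excluded by these arrays.

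The test of whether the drug difference depended on surgery, the interaction, was negative for 10 of 10, from -0.91 (Il2rb) to -2.72 (Gzma) with a median of -2.12, against -0.03 over all probe sets tested. Of the 10, 0 were called where 0.369% of all probe sets were, and Ccl5 alone had an unadjusted p under 0.05 (interaction -2.62, SE 1.15, limma adjusted p = 0.45), as 10.8% of all probe sets had. The opposite signs of the heart failure difference with and without the drug were thus not shown to differ. The median was -1.30 without sham placebo lung 2, -0.58 without sham placebo lungs 2 and 3 and -1.27 without sham ketotifen lungs 1 and 2. For the average of the heart failure differences over both arms, 0 of 10 were called where 21% of all probe sets were, and 0 had an unadjusted p under 0.05 where 37.6% did. That average ran from -0.72 to 0.24 with a median of -0.24, negative for 7 of 10. Its sign rested on single lungs, since the median was 0.16 without CHF placebo lung 1 (8 of 10 positive), 0.16 without sham placebo lung 1 (7 of 10 positive) and 0.05 without CHF ketotifen lung 2 (5 of 10 positive), but -0.58 without sham placebo lung 2 and -0.52 without CHF placebo lung 3. It was -0.89 without sham placebo lungs 2 and 3, with 10 of 10 negative, and 0.23 without sham ketotifen lungs 1 and 2, with 8 of 10 positive.

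**Figure D3:**
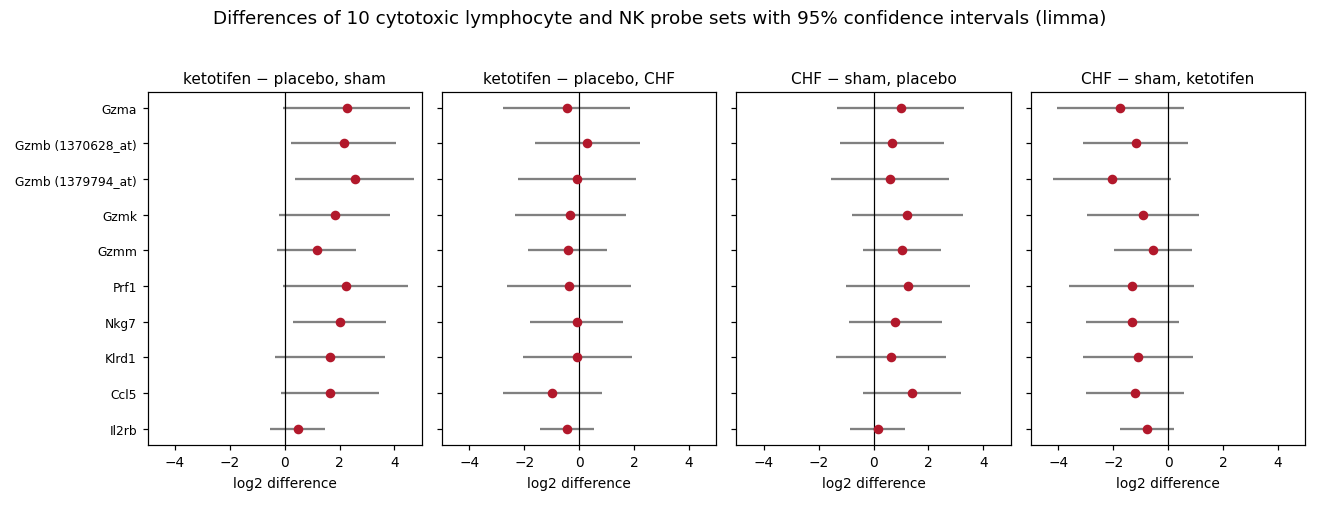
Log2 differences (horizontal axis) of the 10 probe sets in the 4 comparisons of groups, points with 95% confidence intervals from limma. The differences of ketotifen minus placebo in sham rats lie to the right of 0 and those of CHF minus sham with ketotifen to the left, and 3 of the 40 intervals, those of Nkg7 and both of Gzmb in sham rats, leave out 0.

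Further genes with a role in these cells were taken from lists of granule, receptor, transcription factor, cytokine and homing genes. Which cells of the lung made them was not tested. The list means had r = 0.70 (granule), 0.70 (receptor), 0.12 (transcription factor), 0.59 (cytokine) and -0.04 (homing) with the mean of the 9 standardised genes. For CHF against sham with placebo, 0 genes of these lists were called, where 0.169% of all probe sets were. In the granule list, 12 of 17 genes were tested, and for the average of heart failure over both arms 1 fell, 2 rose and 9 did not pass, where 21% of all probe sets were called. Tnfsf10, which encodes the death ligand TRAIL, had 7.72, 8.61 and 7.98 in CHF ketotifen lungs and 7.23, 9.04 and 9.55 in CHF placebo lungs, against 10.69, 10.77 and 10.06 in sham ketotifen lungs and 10.29, 9.39 and 9.83 in sham placebo lungs. It fell by 1.82 (limma adjusted p = 0.00923), and every CHF ketotifen lung lay below every sham lung. The genes that rose were Ctsc, the protease that activates granzymes (0.50, limma adjusted p = 0.0342), and Stxbp2, which takes part in granule release (0.70, limma adjusted p = 0.036). Both lost that call in single leave-one-out runs, Ctsc in 6 and Stxbp2 in 9 of 12, with adjusted p up to 0.0744 and 0.0869, while Tnfsf10 kept it in 12 of 12. Stxbp2 also lost it with CHF ketotifen lungs 1 and 3 averaged (adjusted p = 0.0549). In CHF ketotifen against sham ketotifen lungs, 0 of the 12 genes rose, 3 fell and 9 did not pass, where 13% of all probe sets were called. Tnfsf10 differed there by -2.40 (limma adjusted p = 0.0156) and lost the call in 2 of 6 leave-one-out runs (adjusted p up to 0.0532). With CHF ketotifen lungs 1 and 3 averaged, Tnfsf10 was at -2.28 and did not pass (adjusted p = 0.0517). Unc13d, which primes granules for release, averaged 6.53 in CHF ketotifen lungs and 7.41 in sham ketotifen lungs, a difference of -0.87 (limma adjusted p = 0.0316). Serpinb9, an inhibitor of granzyme B, averaged 10.40 in CHF ketotifen lungs and 11.12 in sham ketotifen lungs, a difference of -0.73 (limma adjusted p = 0.0363). Both lost the call in 6 of 6 leave-one-out runs, with adjusted p up to 0.0929 for Unc13d and 0.121 for Serpinb9. They also lost it with CHF ketotifen lungs 1 and 3 averaged (adjusted p = 0.0793 for Unc13d and 0.0713 for Serpinb9). Without the drug, CHF minus sham had the opposite sign, at 0.81 for Unc13d and 0.51 for Serpinb9 (limma adjusted p = 0.121 and 0.192). In sham rats, ketotifen minus placebo was 1.21 for Unc13d and 1.11 for Serpinb9 (limma adjusted p = 0.0867 and 0.0753).

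In the list of NK receptors and adaptors, 6 of 27 genes were tested. For the average of heart failure 3 rose, 0 fell and 3 did not pass, where 21% of all probe sets were called, and 0 were called in the other 5 comparisons, including CHF against sham with ketotifen, where 13% of all probe sets were. Tyrobp and Hcst encode the adaptors DAP12 and DAP10 through which NK receptors signal, and Fcgr3a the antibody receptor CD16, and all are also made by macrophages and other myeloid cells. Tyrobp had 10.73, 10.87 and 10.54 in CHF ketotifen lungs and 10.78, 9.62 and 10.20 in CHF placebo lungs, against 9.58, 9.67 and 9.35 in sham ketotifen lungs and 9.46, 7.73 and 8.71 in sham placebo lungs, and rose by 1.37 (limma adjusted p = 0.0091). Hcst rose by 1.58 (limma adjusted p = 0.0127) and Fcgr3a by 1.71 (limma adjusted p = 0.0164), and each of the 3 calls held in 12 of 12 leave-one-out runs. Of 9 macrophage markers 8 were called higher in the same comparison, with list means of 9.23 to 9.61 in CHF ketotifen lungs and 8.15 to 9.24 in CHF placebo lungs, against 7.63 to 7.92 in sham ketotifen lungs and 6.41 to 7.94 in sham placebo lungs, and their part in these levels was not tested.

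In the transcription factor list, 4 of 10 genes were tested, and Nfil3 and Id2, both needed for NK cell development in mice, rose in the average of heart failure, with 2 not passing, where 21% of all probe sets were called. Nfil3 had 7.002, 6.91 and 7.14 in CHF ketotifen lungs and 5.79, 4.93 and 4.81 in CHF placebo lungs, against 4.03, 4.33 and 4.20 in sham ketotifen lungs and 3.78, 5.32 and 4.80 in sham placebo lungs. Its CHF ketotifen lungs stood above all others, with a difference of 2.83 from sham ketotifen lungs (limma adjusted p = 0.002). With placebo, CHF minus sham was 0.54 for Nfil3 (limma adjusted p = 0.422). Id2 differed by 1.01 in the average of heart failure (limma adjusted p = 0.0226). That call was lost without CHF ketotifen lung 2 (adjusted p = 0.0511) and with no filter on dim probe sets (0.0517). With ketotifen, CHF minus sham was 0.71 for Id2 (limma adjusted p = 0.211). Both genes are made by many other cells.

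In the list of interleukin 2, 12, 15 and 18 signalling, 7 of 19 genes were tested, and for the average of heart failure only Il18 was called, where 21% of all probe sets were. Il18 encodes a cytokine that activates NK cells. It had 10.40, 11.0002 and 9.9999 in CHF ketotifen lungs and 10.66, 9.30 and 9.97 in CHF placebo lungs, against 8.92, 8.60 and 8.99 in sham ketotifen lungs and 9.30, 7.12 and 8.03 in sham placebo lungs, and rose by 1.73 (limma adjusted p = 0.00995). Il15, the cytokine on which NK cells depend, had 6.65, 6.66 and 6.37 in CHF ketotifen lungs, 6.37, 7.31 and 7.30 in CHF placebo lungs, 7.22, 7.29 and 7.36 in sham ketotifen lungs, and 7.54, 4.71 and 6.52 in sham placebo lungs. It was named after its values were seen, was called in 0 of the 6 comparisons, and had its lowest value in the same lung as Prf1.

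In the list of chemokine and lymphocyte homing genes, 7 of 16 were tested, and 5 rose in the average of heart failure, where 21% of all probe sets were called, namely the chemokine genes Cxcl10, Ccl3, Ccl4 and Cxcl9 and the receptor gene Ccr1, of which Ccr1 lost the call in 6 of 12 leave-one-out runs (adjusted p up to 0.0783). The median of CHF minus sham over the 7 genes was 0.72 with placebo, where 0 were called, and 2.32 with ketotifen. Cxcl10, an interferon-induced chemokine that draws T and NK cells through Cxcr3, had 6.20, 5.89 and 6.08 in CHF ketotifen lungs and 4.21, 2.51 and 3.40 in CHF placebo lungs, against 3.03, 3.03 and 2.32 in sham ketotifen lungs and 3.12, 2.58 and 2.29 in sham placebo lungs. The CHF ketotifen lungs stood apart from all others, most of which lay near background, so that the size of the difference is uncertain. It was 3.27 against sham ketotifen lungs (limma adjusted p = 0.00131) and 2.69 against CHF placebo lungs (limma adjusted p = 0.00693), and both calls held in 6 of 6 leave-one-out runs, while that against CHF placebo was lost when only the 6 arrays compared were fitted (adjusted p = 0.0711). Ccl3, a chemokine that draws leukocytes, had 9.34, 11.45 and 8.90 in CHF ketotifen lungs and 6.42, 5.998 and 6.26 in CHF placebo lungs, against 6.13, 6.45 and 6.08 in sham ketotifen lungs and 6.06, 4.20 and 5.62 in sham placebo lungs. It differed by 3.68 between CHF ketotifen and sham ketotifen lungs (limma adjusted p = 0.00607) and by 3.67 between CHF ketotifen and CHF placebo lungs (limma adjusted p = 0.0148), and the call against CHF placebo was lost without CHF placebo lung 2 or lung 3 (adjusted p = 0.0858 and 0.0705) and with only the 6 arrays compared (0.0908). For CHF ketotifen against sham ketotifen lungs, Ccl4 (2.63, limma adjusted p = 0.0136) and Cxcl9 (2.32, limma adjusted p = 0.0176) rose too, in a comparison that called 13% of all probe sets. Cxcl9 lost that call without sham ketotifen lung 3 (adjusted p = 0.0529) and without CHF ketotifen lung 2 (adjusted p = 0.0667). Its sham ketotifen values of 3.07 to 3.29 lay near background, as did some of Ccl4 at 2.51 to 4.54, so that the sizes are uncertain. S1pr1, a receptor for lymphocyte exit from tissue, fell by 0.89 (limma adjusted p = 0.0362), a call that held in 1 of 6 leave-one-out runs. Ccl5 itself was lower on average in CHF ketotifen lungs in the same comparisons, without passing.

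**Figure D4:**
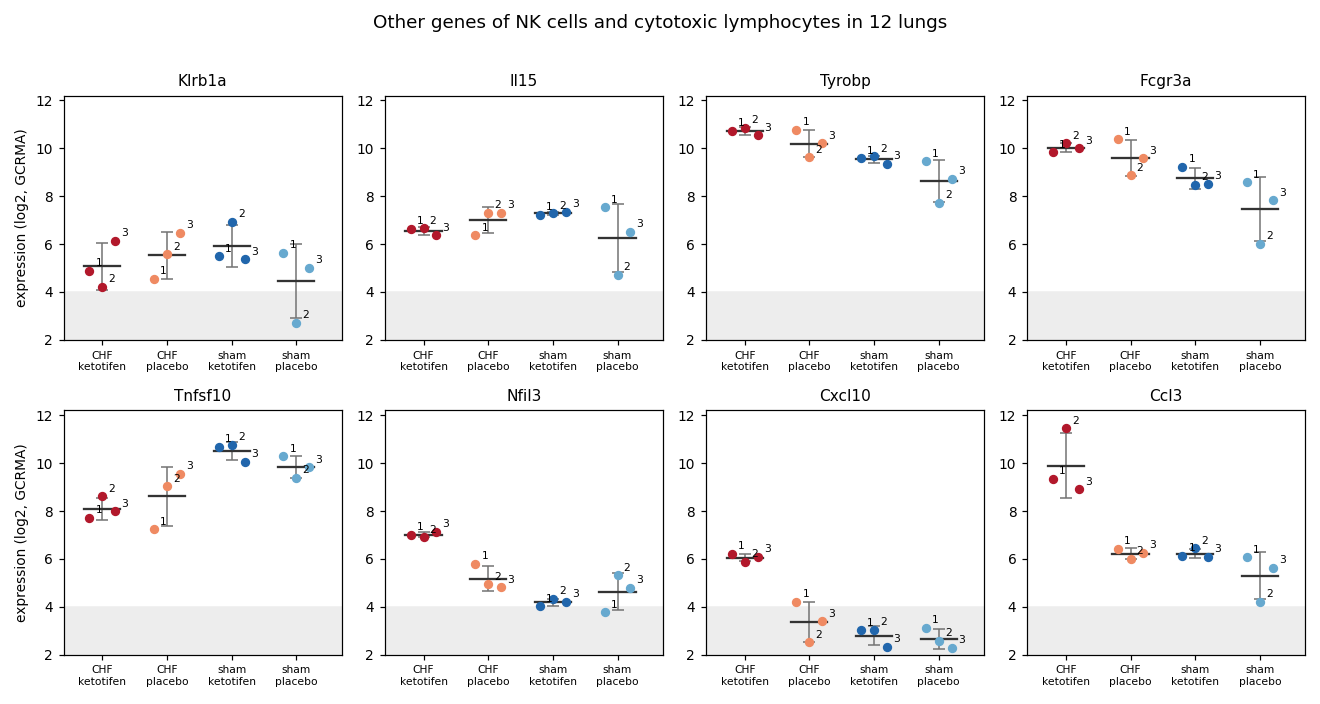
Log2 expression (vertical axis) of 8 genes of the lists in the 4 groups; points are lungs with their replicate number, bars are group means, whiskers 1 SD (n = 3), and grey marks values under 4. Klrb1a and Il15 are lowest in sham placebo lung 2, Tnfsf10 is lower in CHF ketotifen lungs than in every sham lung, and Cxcl10, Ccl3 and Nfil3 are highest in the 3 CHF ketotifen lungs.

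Most of the heart failure calls of these lists did not hold without the lungs that stood apart. Of the 14 list genes called in the average of heart failure, 2 (Cxcl10 and Nfil3) remained called without sham placebo lungs 2 and 3, where Tnfsf10 had an adjusted p of 0.0598, Tyrobp of 0.0607, Hcst of 0.0558, Fcgr3a of 0.0771 and Il18 of 0.0762. The directions of these 5 were kept, with Tnfsf10 at -2.04 and Tyrobp at 0.96. Without sham ketotifen lungs 1 and 2, 4 of the 14 remained called (Ccl4, Cxcl10, Id2 and Nfil3). Over all probe sets the calls in that average also fell, to 297 (1.8%) without sham placebo lungs 2 and 3 and to 708 (4.28%) without sham ketotifen lungs 1 and 2, against 3467 (21%) with all lungs. For CHF ketotifen against the remaining sham ketotifen lung, Cxcl10 kept its call, while Nfil3 (adjusted p = 0.0836) and Ccl3 (0.127) did not pass in that smaller design, with differences of 2.82 for Nfil3 and 3.81 for Ccl3 that were close to those with all 3 lungs. For T cells, 0 of 7 markers were called in the average of heart failure and 1 had an unadjusted p under 0.05, with list means of 4.80 to 5.29 in CHF ketotifen lungs and 4.68 to 5.54 in CHF placebo lungs, against 4.86 to 5.98 in sham ketotifen lungs and 4.13 to 4.99 in sham placebo lungs. Of the other marker lists the same comparison, which called 21% of all probe sets, called 7 of 9 genes of all leukocytes higher, 7 of 8 of mast cells, 2 of 2 of red cells and 1 of 4 of neutrophils, 1 of 4 of B cells higher and 1 lower, 4 of 6 of ciliated cells and 4 of 5 of club cells lower, and 0 of 5 of cardiomyocytes, of which 4 had an unadjusted p under 0.05.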

How the data were processed

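The log2 expression values per probe set, one column per array, are the authors' own: per the submitters' processing notes they used GCRMA and R 2.5.0. GCRMA subtracts a modelled background, normalizes the arrays and summarizes probes. Its settings are not given in the notes. Groups came from the sample labels. Of 31099 probe sets, 57 controls were left out, and 16536 with a value of at least 4 in at least 3 arrays were tested. Symbols came from the platform annotation: 20826 probe sets had 1 symbol, 436 several and 9780 none.

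Each comparison was a two-sided limma contrast (limma 3.58.1, R 4.3.3) from 1 fit of the 4 group means to all 12 arrays, leaving 8 residual degrees of freedom, with eBayes, an intensity trend and Benjamini-Hochberg adjustment over all 16536, called at an adjusted p under 0.05. The fit was run on simulated data with independent noise for each probe set and array. That setting does not cover genes that vary together from lung to lung, as these did. Standard errors and intervals are those of the fit, and each SD is over the 3 lungs of a group. Correlations used permutation tests in Python 3.11.15. Every probe set of the 10 genes is described. List genes used the probe set of highest mean, and those named came from the up to 4 of smallest p in a list and comparison, unless stated. Likeness was Pearson's r with the mean of the 9 standardised genes, provisional symbols (LOC, RGD, MGC, AABR) left out. The genes, lists and alternatives were chosen with earlier results of these data known. The limma p-values rest on the spread between these lungs within groups, moderated across probe sets. The permutation p-values shuffle all 12 lungs without regard to group. No p was computed for correlations of deviations from the group means.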

Additional observations from a re-analysis of the deposited data

How the results depend on the processing

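The count of cytotoxic lymphocyte and NK probe sets called was 0 in each of the 6 comparisons and in 116 of 118 alternative results: other filters, quantile normalization, no trend, robust moderation, only the arrays compared, 1 probe set per gene, arrays averaged or left out, and array weights. The exceptions were limma's array weights, with 6 called for CHF against sham with placebo and 4 for ketotifen against placebo in sham rats. That estimate did not converge, gave sham placebo lung 3 a weight of 35.1 where the others had 0.30 to 3.77, and called 8291 and 3747 of all probe sets, against 28 and 14. With gene-by-gene array weights, added after seeing the data, 0 were called in each comparison (lowest adjusted p 0.0556 and 0.0719). A replicate block, with the replicate number as a block in the fit, left the count at 0 in each of the 6 comparisons. For same-numbered lungs of different groups, r of deviations from the group means was -0.35 to 0.26, over 0.1 in 5 of 18 pairs. Lungs of different numbers were not compared in this way, and the labels do not say what the number means. No pairing was assumed, and whether the number marks one could not be decided from these values. Leaving out each lung in turn gave counts from 0 to 0 in all 48 runs.

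Directions were less stable. Leaving out 1 lung, CHF minus sham with placebo ranged from -0.10 to 2.03 for Gzma, -0.20 to 1.50015 for the brighter Gzmb probe set, -0.20 to 1.43 for the dimmer Gzmb probe set, -0.19 to 1.35 for Klrd1 and -0.24 to 0.52 for Il2rb. CHF minus sham with ketotifen ranged from -0.93 to 0.027 for Gzmm, and ketotifen minus placebo in CHF from -0.42 to 0.90 for the brighter Gzmb probe set. Without sham placebo lungs 2 and 3, CHF minus sham with placebo was -1.11 for Gzma, -0.999 and -1.03 for Gzmb, -0.81 for Gzmk, -0.78 for Prf1, -0.13 for Nkg7, -0.74 for Klrd1, -0.17 for Ccl5 and -0.59 for Il2rb, and ketotifen minus placebo in sham rats was -0.21 for Gzmk and -0.27 for Il2rb. Without sham ketotifen lungs 1 and 2, Gzmm was at 0.21 for CHF minus sham with ketotifen. The cause of these changes was not tested beyond which lungs were left out. Of 566 alternative values of list genes, 107 lost their call and 0 changed direction. Only list genes and comparisons called in the main fit were followed in this way. Their count of changed directions therefore cannot be compared with that of the cytotoxic genes, none of which was called.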
